A study of Mus musculus with 4 samples.

Results

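Peaks of Ruvbl2 CUT&Tag that fell outside chromosomes 1 to 19, X and Y were examined in mouse leukaemia stem cells (LSC) and haematopoietic stem cells (HSC). They lay on unlocalized, unplaced and patch sequences of the genome assembly and on the mitochondrial genome. The peaks were chosen by the sequence name alone, with no use of their values. There were 6731 such peak records among 874380 in 4 deposited lists (0.770%), spread over 117 sequences. LSC replicates 1 and 2 contributed 2099 and 1686 records, and HSC replicates 1 and 2 contributed 1813 and 1133.

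In CUT&Tag an antibody tethers a transposase to chromatin, and the released fragments are sequenced. Ruvbl2 is an AAA+ ATPase found in several chromatin remodelling complexes, INO80 among them. The LSC were bone marrow cells sorted as Lin-, Sca-1-, c-Kit+, CD16/32+ and CD34+ from MLL-AF9-driven Nup214fl/+ mice, a gate that granulocyte-monocyte progenitors also meet. The HSC were bone marrow LSK cells, CD48- and CD150+, of Nup214fl/+ mice, with no fusion named. Both groups thus carried the Nup214fl/+ genotype. Groups were read from titles, since a separate label calls every library, LSC included, haematopoietic stem cell. The labels give no ages. Each group had 2 libraries made from 2000 to 5000 cells, and the labels do not say whether replicates came from separate animals, so p-values measure only the spread between these samples, which may be in part technical. No library without the Ruvbl2 antibody was analysed here, and the values below are not shown to depend on Ruvbl2.

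Unlocalized sequences are assembly scaffolds assigned to a chromosome but not to a position on it, and unplaced scaffolds are assigned to none. Both kinds tend to hold repeats and recent duplications that could not be assembled through. Patch sequences are later corrections or alternative versions of a chromosome stretch, so most of a patch repeats sequence that is also on its chromosome, and a read from there can match both copies. The mitochondrial genome is a small circle present in many copies per cell and without nucleosomes. The sources used here do not say how reads matching several places were assigned.

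The lists held 216077 and 210541 records for LSC replicates 1 and 2, against 161655 and 286107 for HSC replicates 1 and 2. Sequencing depth is unknown, since read totals are not in the lists. The background pileup worked out from fold and −log10 p, which grows with depth and with fragment length, was 4.46 and 3.72 in LSC and 2.66 and 4.34 in HSC. Records on chromosome Y numbered 93.3 per 10000 in LSC replicate 1 and 1.23 in LSC replicate 2, against 90.8 in HSC replicate 1 and 0.559 in HSC replicate 2. The replicates of each cell type thus differed in chromosome Y records and were not repeats of a single cell sample. Peak names have one stem in replicate 1 of both groups and another in replicate 2. As a check of the cell labels, at least 1 record lay within 1000 bp of an end of 2 and 3 of 6 stem cell marker genes in LSC and 4 and 2 in HSC. Hlf, a stem cell transcription factor, had none in any library, while Ly6a, which encodes Sca-1, had one in every library, those of the Sca-1- LSC included. Procr had a record in both HSC libraries and in neither LSC library, and Slamf1 in LSC replicate 2 alone. Mecom had one in LSC replicate 2 and HSC replicate 1, and Meis1 in replicate 1 of both cell types. Of 7 genes of the LSC gate or of its granule proteins, 5 and 7 had a record in LSC and likewise 5 and 7 in HSC. Marker genes of B, T, erythroid and stromal cells also had records, 0 to 3 of 3 genes per list and library. Lck, a T cell gene, had one in both LSC libraries and in neither HSC library. The share of all genes with such a record was not worked out, so these counts cannot be set against it. Taken as sets, these markers do not separate the labelled cell types in the lists.

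The mitochondrial genome carried the strongest of these peaks in every library. Each list held 1 mitochondrial record, and it covered the whole molecule, bases 1 to 16299 of chrM, with its 13 protein-coding, 22 tRNA and 2 rRNA genes. The authors' fold is summit pileup plus 1 over that library's own background plus 1. For this record it was 13615 and 15130 in LSC replicates 1 and 2, against 3734 and 9006 in HSC replicates 1 and 2. Both LSC values lay above both HSC values, a mean difference of 1.31 on the log2 scale. The two-sided exact permutation test over libraries gave p = 0.333, which is the smallest that 2 against 2 libraries allow. LSC stood at 3.65 times HSC at replicate 1 and at 1.68 times HSC at replicate 2. The log2 difference was 0.67 without HSC replicate 1 and 1.94 without HSC replicate 2. The recovered summit pileup was 74391 and 71443 fragments in LSC, against 13661 and 48117 in HSC. Ranked by −log10 p among all records of its library, the mitochondrial record stood at 14 and 3 in LSC and at 18 and 8 in HSC. In rank the groups overlapped. Mitochondrial DNA content per cell was not measured, and its part in the fold was not tested.

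The mitochondrial summit sat at the same base in libraries of the same replicate number. In LSC replicate 1 and HSC replicate 1 it was base 12751, inside ND5 (bases 11742 to 13565), which encodes a complex I subunit. In LSC replicate 2 and HSC replicate 2 it was base 15634, which lies 212 bases beyond the end of TrnP, the proline tRNA gene and the last one annotated on the molecule. The stretch after TrnP holds the control region, where replication and transcription start. The summit position was therefore shared across cell types and differed between the replicates of each.

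JH584304.1, an unplaced scaffold, was almost entirely covered by peaks. Records covered 96.1% and 94.6% of the 114447 bases that peaks reached in LSC replicates 1 and 2, against 89.9% and 98.7% in HSC replicates 1 and 2. On chromosomes 1 to 19, X and Y the covered share of the span was 2.88% and 4.05% in LSC and 2.54% and 5.74% in HSC. The scaffold's signal was divided into 13 and 14 records in LSC and into 24 and 4 in HSC. The longest ran over 47594 and 47017 bases in LSC and over 40395 and 52213 bases in HSC. These were the longest records outside the main chromosomes in each library.

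The strongest record of JH584304.1 lay towards its end in every library, for example at bases 66854 to 114447 in LSC replicate 1. Its fold was 3339 and 304 in LSC replicates 1 and 2, against 783 and 654 in HSC replicates 1 and 2. LSC replicate 1 was high and LSC replicate 2 low, with both HSC libraries between them, and the exact permutation test gave p = 1.00. The rank within the library varied little, at 26 and 37 in LSC and at 33 and 26 in HSC. The summit was base 103922 in LSC replicate 1 and base 103927 in the other libraries. Of the 97 sequences with records in all 4 libraries, JH584304.1 had the closest agreement of strongest summits, 5 bases. The 4 strongest summits lay within 500 bases on 3 of the 97, the others being the patches KB469738.3 (359 bases) and KQ030491.1 (382 bases). On the 21 main chromosomes this was so for 14.

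**Figure D1:**
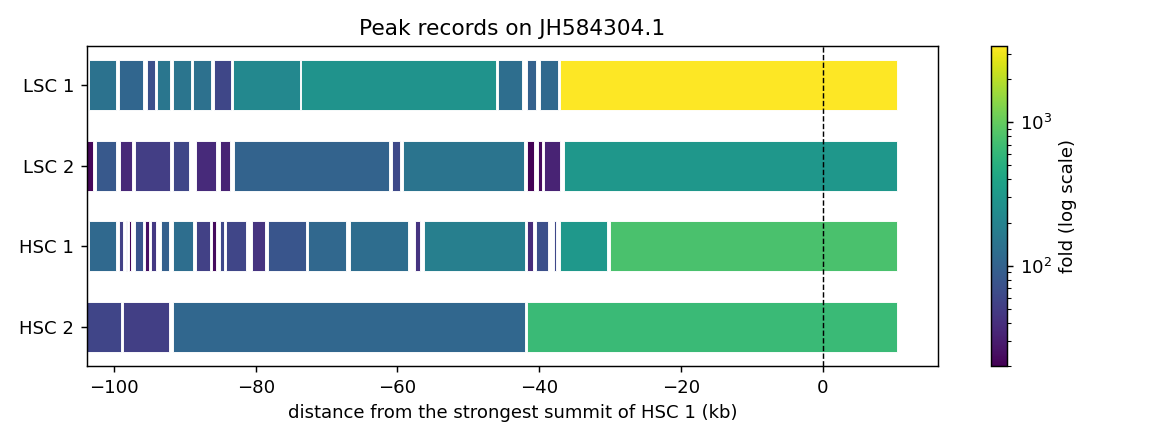
Peak records on the unplaced scaffold JH584304.1 in LSC 1, LSC 2, HSC 1 and HSC 2 (replicates 1 and 2, from top to bottom), drawn by distance in kb from the strongest summit of HSC 1 (dashed line). Colour gives the authors' fold on a log scale. Records cover 89.9% to 98.7% of the scaffold, and the strongest record of each library, with folds from 304 to 3339, spans the dashed line.

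The share of records off the main chromosomes overlapped between the cell types and varied more between the HSC libraries than between the LSC libraries. Per 10000 records of the library they numbered 97.1 and 80.1 in LSC replicates 1 and 2, against 112 and 39.6 in HSC replicates 1 and 2. The order from high to low was HSC replicate 1, LSC replicate 1, LSC replicate 2 and HSC replicate 2. The means were 88.6 ± 12.1 in LSC and 75.9 ± 51.3 in HSC (SD, n = 2 each), with the LSC values inside the range of the HSC values. The mean log2 difference was 0.40, and the two-sided exact permutation test gave p = 1.00. LSC was 0.866 times HSC at replicate 1 and 2.02 times HSC at replicate 2, so the direction differed between replicate numbers. Without HSC replicate 2, the library with the longest list, the log2 difference turned to -0.35. Among the 20000 strongest records of each library, 138 and 96 lay off the main chromosomes in LSC, against 165 and 104 in HSC. At that equal list length both replicate 1 libraries stood above both replicate 2 libraries, and the log2 difference was -0.19.

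Patch sequences held most of these records. They made up 78.2% and 81.4% of them in LSC replicates 1 and 2, against 75.0% and 71.1% in HSC replicates 1 and 2. Per 10000 records of the library, patches had 75.9 and 65.2 in LSC, against 84.1 and 28.2 in HSC, where HSC replicate 2 stood low. Unlocalized scaffolds had 16.5 and 11.3 in LSC, against 23.1 and 7.79 in HSC. Unplaced scaffolds had 4.67 and 3.61 in LSC, against 4.89 and 3.60 in HSC, the narrowest range of the 3 kinds. In each kind HSC replicate 1 was highest and HSC replicate 2 lowest, so the groups overlapped, and the exact permutation test gave p = 1.00 for each.

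**Figure D2:**
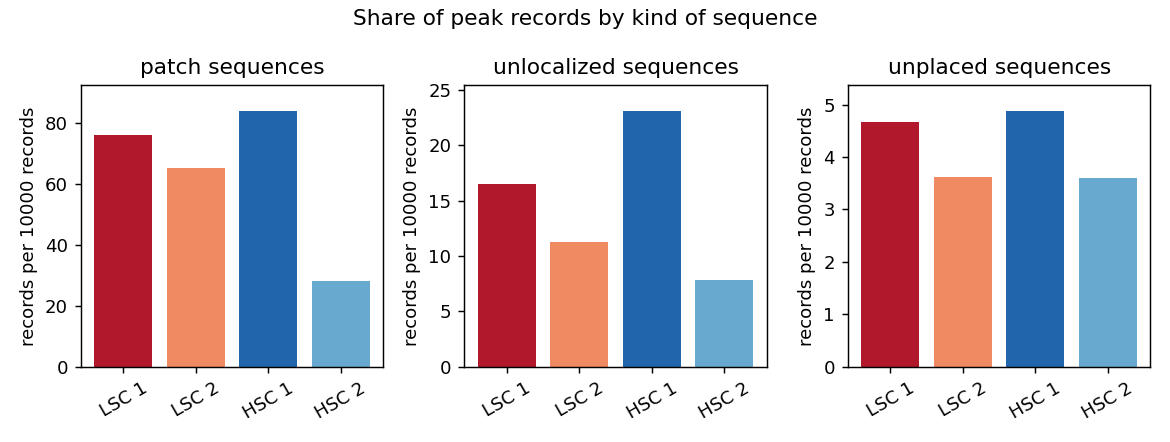
Records on patch, unlocalized and unplaced sequences per 10000 records of the library, for LSC 1, LSC 2, HSC 1 and HSC 2. Each bar is 1 library and starts at 0. In all 3 panels HSC 1 is highest and HSC 2 lowest, with patch values from 28.2 to 84.1.

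The fold of the records depended on the kind of sequence. The median fold on unplaced scaffolds was 17.2 and 11.9 in LSC replicates 1 and 2, against 24.3 and 8.23 in HSC replicates 1 and 2. On the main chromosomes it was 11.3 and 8.89 in LSC and 13.1 and 5.99 in HSC, which puts unplaced scaffolds above the main chromosomes in each library, by 1.33 to 1.85 times. Without JH584304.1 the ratio was still 1.12 to 1.34. Patches lay below the main chromosomes in each library, with median folds of 7.14 and 5.93 in LSC and 7.38 and 5.61 in HSC. Their ratio to the main chromosomes was 0.629 and 0.667 in LSC, against 0.562 and 0.937 in HSC. For unlocalized scaffolds this ratio was 0.629 and 0.810 in LSC, against 0.708 and 1.09 in HSC. They thus lay above the main chromosomes in HSC replicate 2 alone. Over all kinds together the ratio was 0.661 and 0.690 in LSC, against 0.604 and 0.969 in HSC, and the exact permutation test over libraries gave p = 1.00. The log2 difference between LSC and HSC in this ratio was -0.18, and without HSC replicate 2 it turned to 0.16. The −log10 p of the same summits followed, with medians of 24.8 and 16.0 off the main chromosomes in LSC and 19.7 and 16.0 in HSC, against 47.1 and 28.8 on them in LSC and 41.8 and 16.8 in HSC. Its highest value was that of the mitochondrial record, 281764 and 274988 in LSC, against 44768 and 173721 in HSC.

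**Figure D3:**
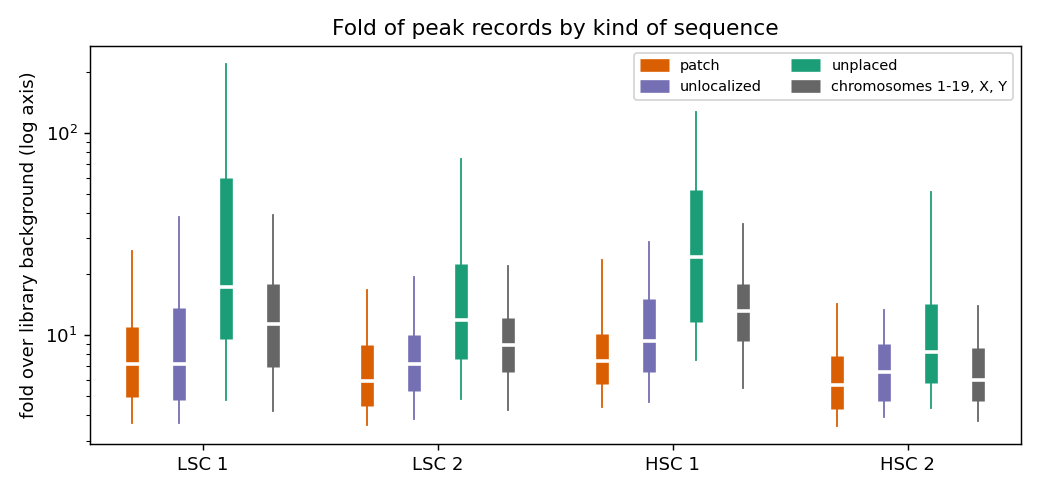
Fold of peak records over the background of their own library, on a log axis, by kind of sequence in LSC 1, LSC 2, HSC 1 and HSC 2. Thin lines span the 5th to the 95th percentile, bars the middle 50% and white ticks the median over records. Medians on unplaced scaffolds (8.23 to 24.3) lie above and those on patches (5.61 to 7.38) below the main chromosomes of the same library.

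Records off the main chromosomes were about as wide as those on them. The median width was 280 and 437.5 bp in LSC replicates 1 and 2, against 389 and 442 bp in HSC replicates 1 and 2. On the main chromosomes it was 332 and 452 bp in LSC and 394 and 461 bp in HSC, so the median off them was 0.843 to 0.987 times as large. Width differed more by library than by place, and the narrowest records of each list measured 180 and 281 bp in LSC and 224 and 291 bp in HSC. Unplaced scaffolds had the widest records, with medians of 417 and 600 bp in LSC and 515 and 607 bp in HSC. Records of at least 2000 bp numbered 11 and 17 in LSC and 11 and 18 in HSC. Of these, 10 and 8 in LSC and 10 and 4 in HSC were on JH584304.1. That scaffold held 13.5% and 10.8% of the bases covered off the main chromosomes in LSC, against 11.6% and 14.8% in HSC.

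Most of the strongest records of each library lay on the main chromosomes, as did most records of the full lists. Records off them made up 0.971% and 0.801% of the full lists in LSC replicates 1 and 2, against 1.12% and 0.396% in HSC replicates 1 and 2. Among the 100 strongest records of each library, 6 and 4 lay off the main chromosomes in LSC replicates 1 and 2, against 5 and 5 in HSC replicates 1 and 2. Of these, 4 and 2 in LSC and 4 and 3 in HSC were on unplaced scaffolds. A patch record reached the first 100 in LSC replicate 1 alone. Among the 1000 strongest, 20 and 13 lay off the main chromosomes in LSC, against 20 and 15 in HSC, and JH584304.1 supplied 11 and 7 of them in LSC and 13 and 4 in HSC. These are 2% and 1.3% in LSC, against 2% and 1.5% in HSC. In each library the shares of the first 100 and of the first 1000 were above that of the full list. Among the 20000 strongest, patches held the most of those off the main chromosomes, 71 and 52 in LSC, against 79 and 54 in HSC. At that length all kinds together made up 0.69% and 0.48% in LSC, against 0.825% and 0.52% in HSC. That was above the share of the full list in HSC replicate 2 alone.

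Most sequences were hit in every library. Of the 117 sequences, 97 had a record in all 4 libraries, beside 118 of the 138 sequences of the whole series (85.5%), which add the 21 main chromosomes. They comprised 66 of 73 patches, 16 of 21 unlocalized and 14 of 22 unplaced scaffolds and the mitochondrial genome. Their median count, without the mitochondrial genome, was 15 and 11.5 records in LSC, against 14 and 7 in HSC. The unplaced and unlocalized ones were GL456210.1 to GL456213.1, GL456216.1, GL456219.1, GL456221.1, GL456233.1, GL456239.1, GL456350.1, GL456354.1, GL456367.1, GL456370.1, GL456372.1, GL456378.1, GL456379.1, GL456381.1, GL456383.1, GL456387.1, GL456389.1, GL456392.1, GL456393.1, GL456396.1, JH584292.1, JH584294.1, JH584296.1 to JH584299.1 and JH584304.1. The patches were JH792826.1 to JH792830.1, JH792831.2, KB469738.3, KB469739.1, KB469740.1, KB469741.2, KB469742.1, KK082441.1, KK082442.1, KQ030484.1 to KQ030492.1, KQ030493.2, KQ030494.1, KQ030495.1, KV575232.1 to KV575242.1, and KZ289064.1 to KZ289095.1 other than KZ289074.1 and KZ289080.1. Among the 20000 strongest records of each library the number of sequences hit in all 4 was 25.

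The sequences with most records were long patches and the unlocalized scaffold JH584299.1 of chromosome 5. KV575237.1 had 78 and 70 records in LSC replicates 1 and 2, against 74 and 23 in HSC replicates 1 and 2. JH584299.1 had 73 and 43 in LSC, against 85 and 37 in HSC. Both replicate 1 libraries held more than both replicate 2 libraries on these sequences. KQ030494.1 had 69 and 77 in LSC, against 49 and 45 in HSC, and KZ289068.1 had 59 and 57 in LSC, against 63 and 55 in HSC. KB469742.1 had 61 and 40 in LSC, against 45 and 24 in HSC. GL456211.1, unlocalized on chromosome 1, had 49 and 35 in LSC, against 61 and 32 in HSC, and the patch KZ289069.1 had 50 and 45 in LSC, against 58 and 27 in HSC. The patch JH792827.1 went with the replicate number in the other direction, with 20 and 45 in LSC, against 14 and 45 in HSC. KZ289089.1 had 58 and 49 in LSC, against 43 and 22 in HSC. KB469741.2 had 45 and 50 in LSC, against 35 and 30 in HSC, and JH792830.1 had 57 and 46 in LSC, against 38 and 35 in HSC. These 3 patches had more records in each LSC library than in either HSC library, but the lists differ in length, and per 10000 records of the library the groups overlapped on all 3. Together these were the sequences among the 5 with most records in at least 1 library. Counts grow with the length of a sequence, which libraries share, so Spearman's rho of the counts over 116 sequences, 0.717 to 0.918 over the 6 pairs of libraries, is given as a description.

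Strongest folds per sequence had medians of 32.2 and 15.9 in LSC replicates 1 and 2, against 24.2 and 9.54 in HSC replicates 1 and 2, over the 96 sequences other than the mitochondrial genome that were hit in all 4 libraries. GL456216.1, unlocalized on chromosome 4, had a strongest fold of 216 and 124 in LSC replicates 1 and 2, against 77.6 and 97.7 in HSC replicates 1 and 2. These records ranked 108 and 91 in LSC, against 329 and 77 in HSC, so in rank the groups overlapped. By fold both LSC values lay above both HSC values, in records within bases 15514 to 17886. The same held at 22 of the 97 sequences hit in all 4 libraries, chrM and GL456216.1 included, beside 22% of all 118 such sequences and 4 of the 21 main chromosomes. Both LSC values lay below both HSC values at 2 of the 97, beside 1.69% of the 118 and 0 of the 21. The unplaced GL456392.1 had 723 and 71.4 in LSC, against 137 and 110 in HSC, in records at bases 21602 to 23510. GL456389.1 had 568 and 18.0 in LSC, against 27.6 and 65.1 in HSC, and GL456387.1 had 219 and 24.6 in LSC, against 39.1 and 36.5 in HSC. On these 3 unplaced scaffolds LSC replicate 1 was highest and LSC replicate 2 lowest, with the HSC libraries between. The strongest records were not all at 1 place, however. On GL456389.1 they began at bases 10380 and 25367 in LSC replicates 1 and 2, against 6072 and 10313 in HSC. On GL456387.1 they began at bases 14686 and 16253 in LSC, against 295 and 15011 in HSC. KZ289081.1 held the strongest patch record, with a fold of 936 in LSC replicate 1 at bases 112628 to 113048 and 18.6 in LSC replicate 2, against 64.0 in HSC replicate 1 and 11.2 in HSC replicate 2. In HSC replicate 2 that patch's lone record lay elsewhere, at bases 318298 to 318726.

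**Figure D4:**
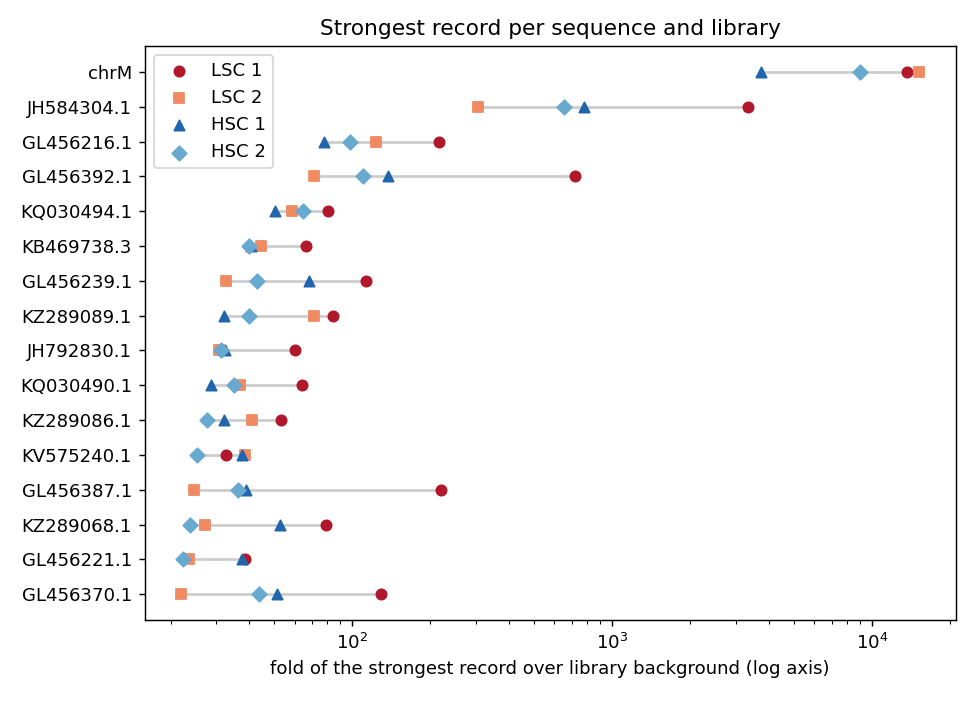
Fold of the strongest record on the 16 sequences hit in all 4 libraries whose lowest of the 4 values was highest, on a log axis. Each point is 1 library (LSC 1, LSC 2, HSC 1, HSC 2) and grey lines span the libraries. The mitochondrial genome leads with 3734 to 15130, followed by JH584304.1 with 304 to 3339.

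Fold levels differed between libraries across the sequences, as they did on the main chromosomes. There the median fold was 11.3 in LSC and 13.1 in HSC at replicate 1, against 8.89 and 5.99 at replicate 2. The counts below were not made for the main chromosomes, except that by share of the list these are named. Of the 97 sequences hit in all 4 libraries, 66 had their highest strongest fold in LSC replicate 1 and 65 their lowest in HSC replicate 2. Both replicate 1 libraries lay above both replicate 2 libraries at 64 sequences, and the reverse held at 1. By share of the list, 44 sequences had their highest value in HSC replicate 1 and 80 their lowest in HSC replicate 2. By that share, both replicate 1 libraries lay above both replicate 2 libraries at 58 sequences and below at 3. Of the 21 main chromosomes, the same held above at chromosomes 12, 14, 16 and Y and below at chromosomes 2 and X. By number of records, both replicate 1 libraries lay above at 37 of the 97 sequences and below at 6. Covered share and rank did not show this split by replicate number as strongly. By covered share, both replicate 1 libraries lay above both replicate 2 libraries at 19 sequences and below at 17. By rank within the library, the strongest record was better placed in both replicate 1 libraries at 33 sequences and in both replicate 2 libraries at 13.

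The sequences were next set against each other between cell types by their share of each list. Both LSC shares lay above both HSC shares at 11 of the 117 sequences (9.40%), beside 11.6% of all 138 sequences. Both lay below at 4 (3.42%), beside 5.07%. The 138 include the 117. On the 21 main chromosomes alone these numbers were 5 (23.8%) and 3 (14.3%), higher shares than off them. With 1 library left out, 32 to 97 sequences lay apart, but 1 library then faces 2, so these numbers cannot be set against the 11 and 4. The 11 were KQ030494.1, GL456210.1, KV575233.1, KZ289072.1, KQ030493.2, KZ289064.1, KQ030490.1, GL456393.1, KB469738.3, KQ030488.1 and GL456372.1. The 4 were GL456233.1, GL456379.1, GL456381.1 and JH584292.1. KV575233.1 had 34 and 33 records in LSC replicates 1 and 2, against 23 and 14 in HSC replicates 1 and 2, while GL456381.1 had 2 and 1 in LSC, against 2 and 8 in HSC. No test was run on these counts.

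Among the 117 sequences, 0 were hit in both LSC libraries alone and 0 in both HSC libraries alone. The 20 sequences not hit in all 4 libraries are described with their values already seen. JH584301.1, JH584302.1, JH584303.1, JH792832.1 and KQ030496.1 were hit in replicate 1 of LSC and of HSC and in neither replicate 2 library. The first 3 are the unlocalized Y scaffolds with any record, and together they had 8 and 0 records in LSC replicates 1 and 2, against 7 and 0 in HSC replicates 1 and 2. This matched the chromosome Y records given above. JH584300.1, also assigned to Y, had a record in no library. GL456233.1, unlocalized on X, had 2 and 5 records in LSC, against 9 and 22 in HSC, so replicate 2 held more in both cell types, as with chromosome X, which took 2.62% and 3.90% of records in LSC, against 2.76% and 4.25% in HSC. JH792832.1 had 10 and 0 records in LSC, against 9 and 0 in HSC. The reverse pattern, replicate 2 of both cell types alone, was seen for GL456359.1, with 0 and 4 records in LSC and 0 and 4 in HSC, and for GL456382.1. GL456385.1 was hit in HSC replicate 2 alone, with 9 records, as was JH584295.1 with 1, and JH792833.1 and JH792834.1 were hit in LSC replicate 1 alone, with 4 and 2. Of the rest, 6 lacked a record in HSC replicate 2 alone, GL456394.1 lacked one in LSC replicate 1 alone, and GL456368.1 and GL456390.1 were hit in LSC replicate 1 and HSC replicate 2.

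**Figure D5:**
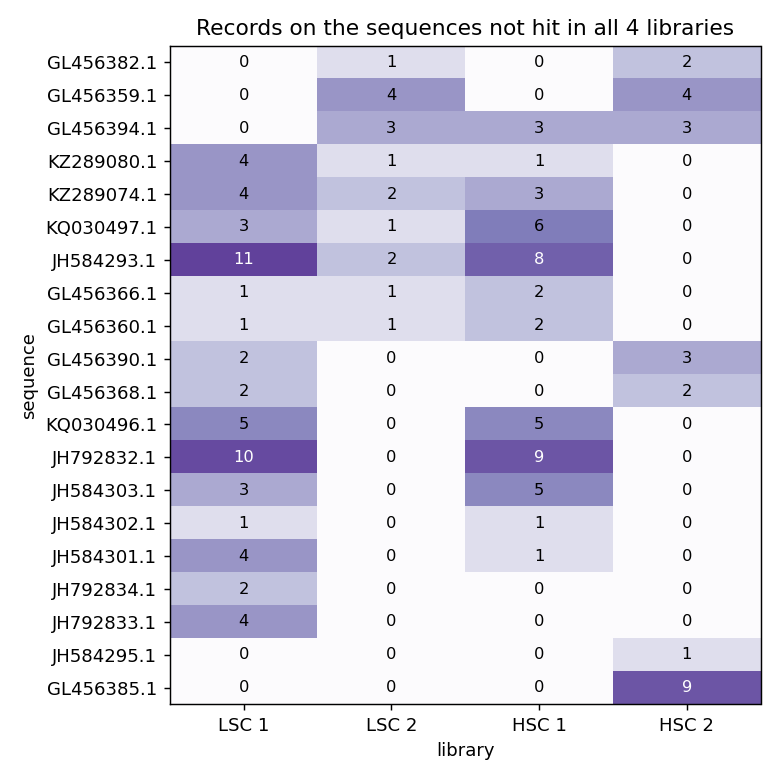
Number of peak records (printed in each cell, darker for more) on the 20 sequences not hit in all 4 libraries, by sequence and library. No row is filled for LSC 1 and LSC 2 alone or for HSC 1 and HSC 2 alone, while 5 rows are filled for LSC 1 and HSC 1 alone.

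Few positions were shared by all libraries. Merging records that overlapped by at least 1 bp gave 5541 regions off the main chromosomes, of which 60 (1.08%) were found in all 4 libraries, beside 0.599% of 726695 regions in the whole series. The share was 4.93% (10 of 203) on unplaced scaffolds, 0.969% (9 of 929) on unlocalized ones and 0.907% (40 of 4408) on patches. Regions seen in a single library made up 85.7% off the main chromosomes and 84.2% on them. The 60 regions lay on 30 sequences and were 1672 bp wide at the median. Longer records overlap more easily, and with windows of 200 bp at the summits 11 regions were found in all 4 libraries. Regions found in each of the other 3 libraries numbered 105 without HSC replicate 1 and 100 without LSC replicate 1. The patches JH792830.1 and KQ030494.1 had 7 such regions each, and GL456211.1 and GL456387.1 had 4 each. By the worst of its 4 ranks, the best placed region after those of chrM, JH584304.1, GL456216.1 and GL456392.1 lay on GL456239.1 (bases 33628 to 40055), with folds of 113 and 32.8 in LSC replicates 1 and 2, against 68.3 and 42.9 in HSC replicates 1 and 2. Of the patch regions, that of KB469738.3 (bases 192281 to 195776) came first, with folds of 66.2 and 44.5 in LSC, against 40.7 and 40.1 in HSC. The KQ030491.1 region (bases 39896 to 44452) followed, with 47.6 and 25.2 in LSC, against 94.3 and 15.9 in HSC, and was strongest in HSC replicate 1.

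Regions found in both libraries of a single cell type were counted beside those of the other pairs. In both LSC and no HSC library there were 110 regions (1.99%), beside 1.88% in the whole series, and in both HSC and no LSC library 59 (1.06%), beside 2.05%. The replicate 1 libraries alone shared 121 (2.18%), beside 1.28% in the whole series, and the replicate 2 libraries alone 131 (2.36%), beside 3.46%. LSC replicate 1 with HSC replicate 2 gave 72 (1.30%), beside 2.74%. LSC replicate 2 with HSC replicate 1 gave 99 (1.79%), beside 1.38%. The best placed regions, chosen after their values were seen, were bases 148154 to 149708 of JH792830.1 in LSC, with folds of 30.6 and 12.7, and bases 115845 to 118099 of GL456211.1 in HSC, with folds of 47.0 and 13.3.

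Overlap between libraries was given as a share of each list. Off the main chromosomes, 12.9% of the records of LSC replicate 1 overlapped one of LSC replicate 2 and 14.9% the other way. For HSC the shares were 11.5% of replicate 1 and 16.4% of replicate 2. On the main chromosomes the same shares were 12.3% and 12.2% in LSC and 16.7% and 9.19% in HSC. Between cell types, 17.6% of the records of LSC replicate 2 overlapped one of HSC replicate 2, and 24.9% the other way, the highest of the 6 pairs. On the main chromosomes this pair gave 19.9% and 14.5%, so only the share of HSC replicate 2 was higher off them. For the replicate 1 libraries, 11.3% of the records of LSC replicate 1 overlapped one of HSC replicate 1, and 13.5% the other way. On the main chromosomes that pair gave 7.99% and 10.6%, so both of its shares were higher off them.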

How the data were processed

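The tools named in the submitters' processing notes are FastQC 0.11.5, Bowtie2 2.2.9, MACS2 and ChIPseeker, with the build mm10. No source used here gives the MACS2 version, its threshold, or how duplicate and multiply matching reads were handled. The authors deposited 1 peak list per library, so calling was per library. The deposited score, not used here, follows −log10 q times 10. The deposited fold is a ratio, summit pileup plus 1 against that library's background plus 1. The deposited −log10 p and −log10 q belong to the same pileup. Fold and rank describe peaks within a list. A whole-number pileup (within 0.05) over 1 background per library was recovered for 100% of 400 records per library, taken evenly by −log10 p among weaker records.

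Records whose sequence was not chromosome 1 to 19, X or Y were kept, with no filter. Unlocalized and unplaced scaffolds and their chromosomes follow the mm10 scaffold names, and other sequences were classed as patches, whose chromosomes are not given in the files. Sequence lengths were not used here, so spans run to the last base reached by a peak. Mitochondrial genes and marker genes came from RefSeq's table of GRCm38.p6. Shares, strongest folds and median ratios were compared between LSC and HSC on the log2 scale by a two-sided exact permutation test over libraries. The named sequences were those hit in all 4 libraries, the 5 with most records per library and any hit in one cell type alone. Members, lists and tests were chosen with earlier results of these data known. The procedure was tested on simulated data. Python 3.11.15, pandas 2.3.3 and SciPy 1.17.1 were used.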

Additional observations from a re-analysis of the deposited data

How the results depend on the processing

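The share of records off the main chromosomes, a log2 difference of LSC against HSC of 0.40, turned to -0.19 with the 20000 strongest records per library and to -0.0089 without patches, and ranged from -0.35 to 1.16 with a library left out. The median fold off against on the main chromosomes, -0.18, turned to 0.20 with the 20000 strongest records and ranged from -0.52 to 0.16 with a library left out. The mitochondrial difference of 1.31 was unchanged by settings that only shortened the lists, since the lone mitochondrial record was always kept. It was 0.67 to 1.94 with a library left out. Its direction could not turn there, because both LSC folds lay above both HSC folds. By highest −log10 p it was 1.66. Relative to the strongest JH584304.1 fold, the mitochondrial fold was 4.08 and 49.8 times as high in LSC replicates 1 and 2. In HSC it was 4.77 and 13.8 times as high, so on this scale the groups overlapped. The sequences hit in all 4 libraries, 97, numbered 25 with the 20000 strongest records, 31 without patches and 97 to 103 with a library left out. The 60 regions found in all 4 libraries numbered 17 with the 20000 strongest records, 20 without patches, 79 to 105 with a library left out, 11 with summit windows and 6 by reciprocal overlap of 50% with records of LSC replicate 1. The 15 sequences apart between the groups had LSC above at 11 and below at 4. With the 20000 strongest records they numbered 10, with LSC above at 4 and below at 6. Without patches they numbered 7, with LSC above at 3 and below at 4, so the larger side changed in both settings. They numbered 32 to 97 with a library left out, where 1 library faced 2. These counts fall or rise with the number of records or libraries by construction. No 2 records of a library shared a start and end, so collapsing them changed nothing. With replicate number as a block the log2 differences were the same, 0.40, 1.31 and -0.18, with exact permutation p of 1.00, 0.500 and 1.00, where 0.500 is the smallest possible. Replicate 1 minus replicate 2 correlated between LSC and HSC over 96 sequences at r = 0.26 for shares and 0.13 for strongest folds, but 2 shared numbers do not show that the libraries are paired. A threshold of −log10 q of at least 10 kept the directions of the share and of the median fold ratio. It left the mitochondrial value unchanged by construction. Without the unlocalized X and Y scaffolds, an alternative chosen after seeing the data, the share difference was 0.42.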
